A study of Mus musculus with 16 samples.

Results

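The Zbtb genes encode transcription factors that pair a BTB (POZ) domain with zinc fingers. They were taken as every gene whose single symbol in the platform annotation begins with Zbtb and a digit, and 37 of the 22180 genes with a single-symbol probe set met that rule. The genes were chosen by name; measured values entered only where a gene had several probe sets, of which one was selected on the highest mean signal over all arrays, and this concerned only Zbtb14. The 37 genes were followed on 16 arrays, in 4 groups of 4, with RNA from C57BL/6 regulatory T (Treg) cells. The mice carried 1 floxed copy of Atg7 (Atg7+/flFoxp3-Cre, called Atg7+/- in the labels) or only floxed copies (Atg7fl/flFoxp3-Cre, called Atg7-/-), and each genotype was either left untreated or injected with rapamycin into the peritoneum at 4 mg per kg daily for 5 days. All groups carried the Foxp3-Cre, which acts in cells that express Foxp3, and no group with unfloxed Atg7 was analysed here. Spleen and peripheral lymph nodes gave the cells, which were sorted as positive for CD4 and Foxp3-YFP, and all groups were then stimulated for 4 h on plates coated with antibodies to CD3 and CD28. Age and sex of the mice were not given in the sources used here, and neither was whether each replicate was a separate mouse or pool; the p-values therefore cover the spread among these 16 samples, which may be technical.

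The BTB domain lets these proteins form dimers and recruit corepressors with histone deacetylases, while the zinc fingers read DNA, so that many members act as repressors. Several are known from lymphocytes: Zbtb7b (ThPOK) fixes the CD4 fate in the thymus, Zbtb16 (PLZF) directs natural killer T cells, and Zbtb32 restrains cytokine production and proliferation of activated T cells. Rapamycin inhibits the kinase mTOR, which couples nutrients and antigen receptor signals to growth, and Atg7 drives the conjugation steps of autophagy.

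The signal of Atg7 itself was 6.74, 6.65, 6.65 and 6.59 on untreated Atg7+/- arrays and 6.41, 6.44, 6.62 and 6.05 on untreated Atg7-/- arrays. With rapamycin it was 6.67, 6.79, 6.82 and 6.85 in Atg7+/- and 6.73, 6.59, 6.02 and 6.59 in Atg7-/- cells. The genotypes overlapped in both settings, and the differences of -0.28 and -0.30 were not called (limma adjusted p = 0.299 and 0.232). Where the probes lie relative to the floxed part is not given in the sources used here, so this probe set does not settle the genotype labels, and Atg7-/- below means the arrays labelled so.

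Pearson correlations between arrays over the 16760 genes tested were 0.973 to 0.994. One array stood apart: Atg7-/- rapamycin replicate 3 scored -29.8 on the second principal component, against -12.9 to -7.57 for the rest of its group. Member counts, correlations and calls in the lists of related genes that involve its group are therefore given with and without it. Cell type markers are given with it only. Over 7 Treg markers, Foxp3, Il2ra, Ctla4, Ikzf2, Tnfrsf18, Cd4 and Cd3e, the mean log2 signal of an array was 10.45 to 10.83, while the means over marker lists of B cells, dendritic cells, macrophages, and CD8 T and NK cells lay between 4.06 and 5.57. Foxp3 itself was lower in untreated Atg7-/- than Atg7+/- cells (log2 fold change -0.40, limma adjusted p = 0.0355). In such sorted pools, fewer cells of a type and less RNA per cell cannot be told apart.

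All 37 genes passed the filter on dim genes, which asked that the highest group mean exceed a log2 signal of 3.55, the 30th percentile of all values. The nearest to that limit were Zbtb8a and Zbtb8b, with highest group means of 3.92 and 3.95. At the bright end, Zbtb44, Zbtb10, Zbtb1 and Zbtb25 had means of 8.92, 8.88, 8.60 and 8.41 over all arrays. Signals of different probe sets depend on their probes and do not rank transcripts. Zbtb14 had 3 probe sets with means of 6.76, 6.15 and 5.54, of which the first was used; RefSeq lists 5 further genes with such a symbol, Zbtb8os, Zbtb9, Zbtb11, Zbtb11os1 and Zbtb26, and these were not analysed here.

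**Figure D1:**
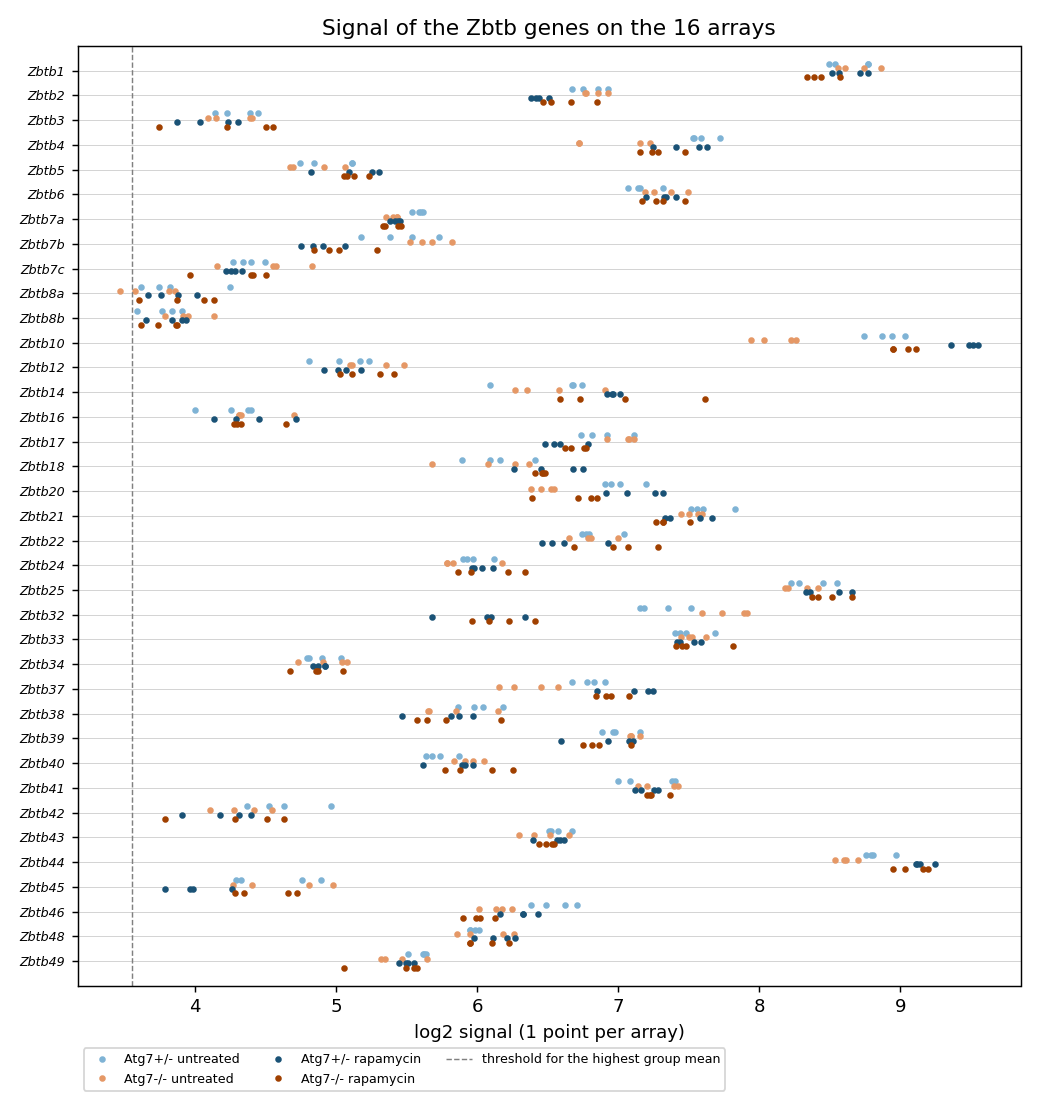
Log2 signal (horizontal axis) of each of the 37 Zbtb genes (rows, in order of their number) on the 16 arrays, 1 point per array, coloured by group; the dashed line marks the limit of 3.55 that the highest group mean had to exceed. The points of most genes overlap between groups; those of Zbtb32 separate by treatment, at 7.15 to 7.91 untreated and 5.68 to 6.41 with rapamycin.

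Rapamycin in Atg7+/- mice addresses how treatment alters Treg cells that keep 1 unfloxed copy of Atg7. Zbtb32 fell 2.39-fold and Zbtb7b 1.48-fold, and Zbtb17, Zbtb2 and Zbtb45 fell as well, while Zbtb10 rose by 0.58 and Zbtb44 by 0.32 on the log2 scale. Thus 7 of 37 members were called by limma at an adjusted p under 0.05, or 18.9%, against 14.1% of all genes tested, a share near the background. Of these, 2 rose (6.03% of all genes did) and 5 fell (8.11%). With each array centred on its median the split was 1 and 5, and over all 16760 genes 668 and 1448. The median log2 fold change was -0.02 over the members and -0.03 over all genes. Arrays of both groups did not overlap for 8 members, 3 higher and 5 lower with rapamycin, where 22.7% of all genes did not overlap.

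Markers of cell types also moved with rapamycin, and their part in the changes of Zbtb genes was not tested. The mean of the 7 Treg markers was 10.70 to 10.81 on untreated and 10.61 to 10.67 on rapamycin Atg7+/- arrays, and 10.66 to 10.83 against 10.45 to 10.63 on Atg7-/- arrays, without overlap in either genotype. Cd4 and Cd3e fell and Tnfrsf18 rose in both genotypes, Ctla4 fell in Atg7-/- cells, and Foxp3 was not called. Of 4 dendritic cell markers with a probe set besides Zbtb46, Xcr1 fell in both genotypes (-1.10 and -1.10, limma adjusted p = 0.000251 and 0.000146) and Flt3 rose in Atg7+/- cells (0.55, adjusted p = 0.0142). Of 4 B cell markers with a probe set, Pax5 fell in both (-0.30 and -0.52, adjusted p = 0.0391 and 0.000871), and no marker of macrophages or of CD8 T and NK cells was called with rapamycin.

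The signal of Zbtb32 was 7.15, 7.52, 7.35 and 7.18 on the untreated Atg7+/- arrays and 6.34, 6.10, 5.68 and 6.07 on the rapamycin Atg7+/- arrays. Every rapamycin array lay below every untreated one, with a log2 fold change of -1.26 (SE 0.133, limma adjusted p = 2.65e-05, n = 4 each). This gene, also called ROG, encodes a repressor of GATA factors that is induced when T cells are activated. For Zbtb7b the untreated signals were 5.18, 5.38, 5.54 and 5.73 and the rapamycin signals 4.90, 4.84, 4.75 and 5.06, again without overlap (-0.57, SE 0.12, adjusted p = 0.00509). Zbtb7b is needed to keep helper T cells, Treg cells included, from taking up CD8 lineage genes.

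Zbtb17 (Miz1), a partner through which Myc represses genes, read 7.11, 6.92, 6.81 and 6.73 untreated and 6.48, 6.79, 6.59 and 6.54 with rapamycin. Its groups overlapped by 1 rapamycin array, and the change of -0.30 (SE 0.0938, adjusted p = 0.0437) lost its call in 14 of 25 alternatives, with adjusted p up to 0.138. Zbtb2, known in human cells as a repressor in the p53 pathway, read 6.67, 6.75, 6.93 and 6.86 untreated against 6.42, 6.38, 6.51 and 6.44 (-0.37, SE 0.0913, adjusted p = 0.0133). Its groups were separate. Zbtb45 was a dim gene at 4.76, 4.29, 4.89 and 4.32 against 4.26, 3.79, 3.98 and 3.97 (-0.57, SE 0.169, adjusted p = 0.0322), separate by a margin of less than the spread within either group. Its call was lost without untreated Atg7+/- replicate 1 or 3 or rapamycin Atg7+/- replicate 2, 3 or 4, with adjusted p up to 0.107.

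Zbtb10, known in human cancer cells as a repressor of Sp1 and related factors, moved the other way. It read 9.04, 8.94, 8.74 and 8.87 on untreated and 9.36, 9.55, 9.51 and 9.49 on rapamycin Atg7+/- arrays, a rise of 0.58 (SE 0.0918, limma adjusted p = 0.000634). Zbtb44 read 8.97, 8.76, 8.81 and 8.79 against 9.11, 9.12, 9.14 and 9.25 (0.32, SE 0.0809, adjusted p = 0.0135). For both genes all rapamycin arrays were above all untreated ones. The call of Zbtb44 was lost with arrays centred on their medians (adjusted p = 0.062).

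The same question was put to Atg7-/- cells. Their group means come from other arrays, but each gene's estimate of spread is shared by all 16, so the tests in the 2 genotypes are not independent. Zbtb32 fell 3.06-fold, Zbtb7b 1.55-fold and Zbtb17 1.27-fold, and Zbtb10, Zbtb37 and Zbtb44 rose by 0.90, 0.58 and 0.47 on the log2 scale. These 6 members are 16.2% of 37, against 20.0% of all genes called, so again no more than the background. Of all genes 8.83% rose and 11.1% fell. Without Atg7-/- rapamycin replicate 3 the count was 8, 4 higher and 4 lower, Zbtb20 (0.32) and Zbtb2 (-0.28) being added. Over all 16760 genes the 3347 calls then became 3414, 1419 higher and 1995 lower. Arrays did not overlap for 7 members, 4 higher and 3 lower, where 20.4% of all genes did not overlap; without replicate 3 there were 10, 5 each way, and 29.2% of all genes. The median change over the members was -0.02 against -0.04 over all genes.

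Untreated Atg7-/- arrays gave Zbtb32 signals of 7.91, 7.73, 7.89 and 7.59, and the rapamycin arrays 6.41, 5.96, 6.22 and 6.08. The difference of -1.61 (SE 0.133, limma adjusted p = 1.79e-06, n = 4 each) was the largest in size among the 37 members in any of the 4 comparisons. Zbtb7b read 5.68, 5.82, 5.61 and 5.52 against 4.95, 4.84, 5.02 and 5.29 (-0.63, SE 0.12, adjusted p = 0.00155), and Zbtb17 read 7.11, 7.07, 7.08 and 6.92 against 6.62, 6.66, 6.75 and 6.77 (-0.34, SE 0.0938, adjusted p = 0.0156). The groups were separate for all 3 genes. In the same direction but not called, Zbtb2 read 6.93, 6.85, 6.77 and 6.76 against 6.66, 6.47, 6.85 and 6.52 (-0.20, adjusted p = 0.125), where rapamycin replicate 3 overlapped the untreated arrays. For Zbtb45 the difference was -0.11 (95% interval -0.47 to 0.24).

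Among the genes that rose, Zbtb10 read 7.94, 8.22, 8.03 and 8.26 untreated and 8.95, 9.11, 9.05 and 8.95 with rapamycin (0.90, SE 0.0918, limma adjusted p = 7.41e-06). Zbtb37, whose function is little described, read 6.15, 6.58, 6.45 and 6.26 against 6.91, 6.84, 6.95 and 7.07 (0.58, SE 0.106, adjusted p = 0.00112). Zbtb44 read 8.61, 8.70, 8.60 and 8.53 against 9.19, 8.94, 9.16 and 9.04 (0.47, SE 0.0809, adjusted p = 0.000705). No array of one group reached the other for these genes. In Atg7+/- cells the rapamycin difference of Zbtb37 was 0.31 (adjusted p = 0.0617, not called).

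**Figure D2:**
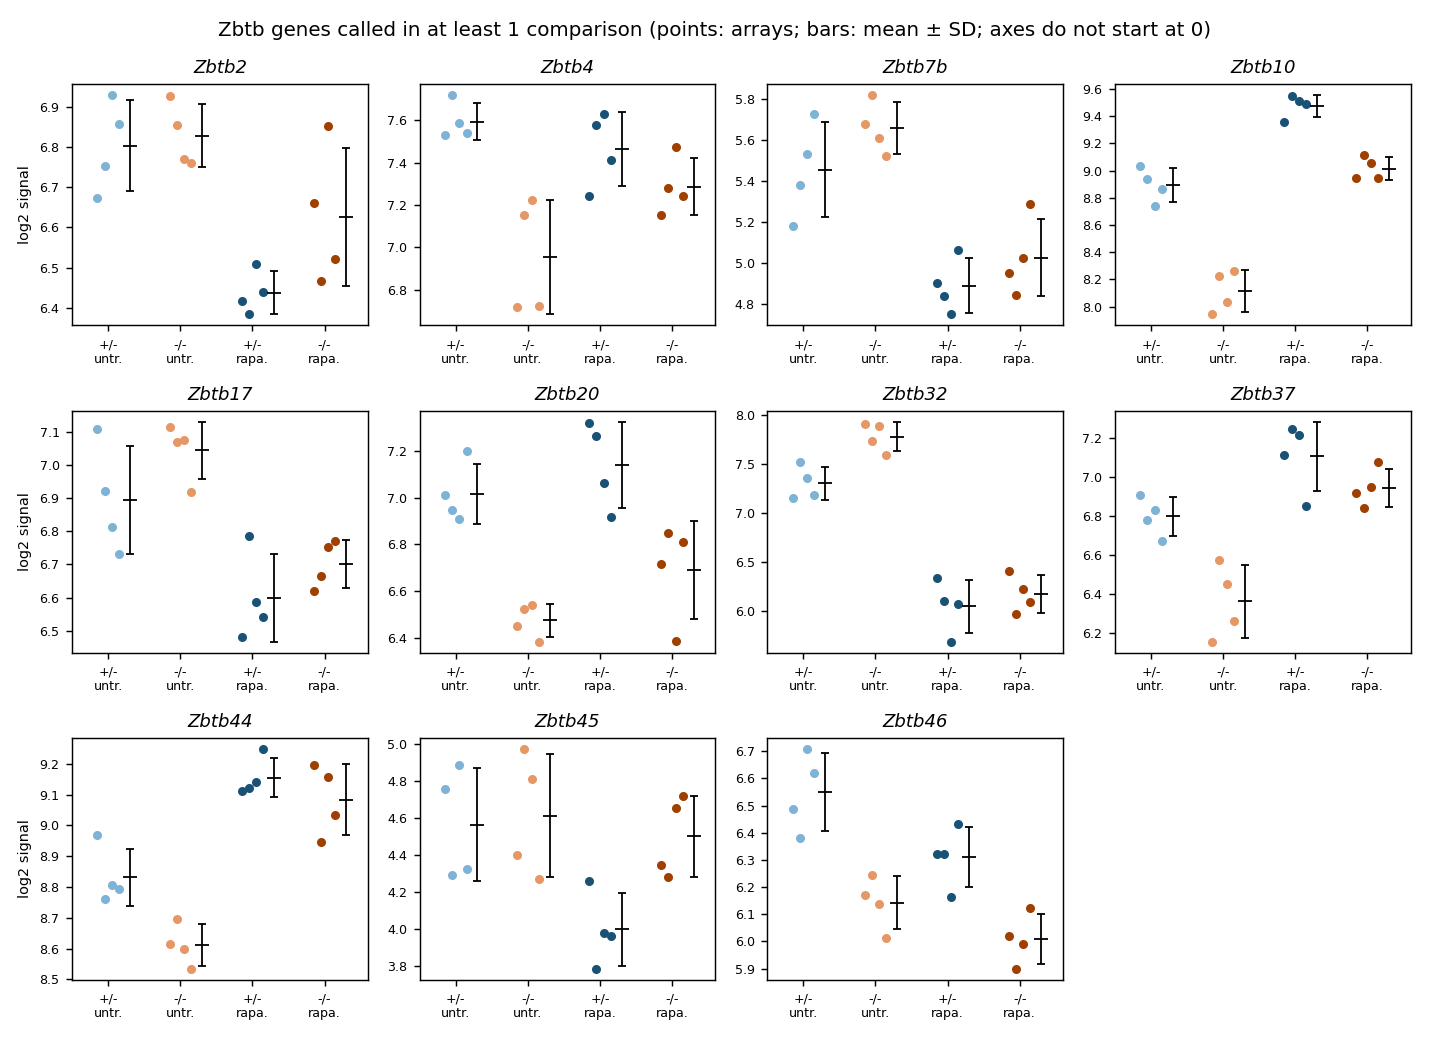
Log2 signal on each array (points, replicates 1 to 4 from left to right) and the mean ± SD of each group (bars, n = 4) for the 11 Zbtb genes called in at least 1 comparison; +/- and -/- are the Atg7 genotypes, and each panel has its own axis, which does not start at 0. Zbtb32 and Zbtb7b are low in both rapamycin groups, and Zbtb10 is lowest in untreated Atg7-/- cells.

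Since the group means in the rapamycin comparisons of the 2 genotypes come from different arrays, the fold changes can be set side by side. Over the 37 members the log2 fold changes in Atg7+/- and Atg7-/- cells had a Pearson r of 0.859 (Spearman 0.68), or 0.757 without Zbtb32, against 0.746 over all genes tested. Members share arrays and normalization within each comparison, so these values are descriptions without a test. The sign was the same for 26 of 37 members, or 70.3%, and for 75.3% of all genes. With Atg7-/- rapamycin replicate 3 left out, r was 0.880 over the members (0.794 without Zbtb32) and 0.764 over all genes. The sign was then the same for 27 members, or 73.0%, and for 76.6% of all genes. Zbtb32, Zbtb7b, Zbtb17, Zbtb10 and Zbtb44 were called in both genotypes.

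**Figure D3:**
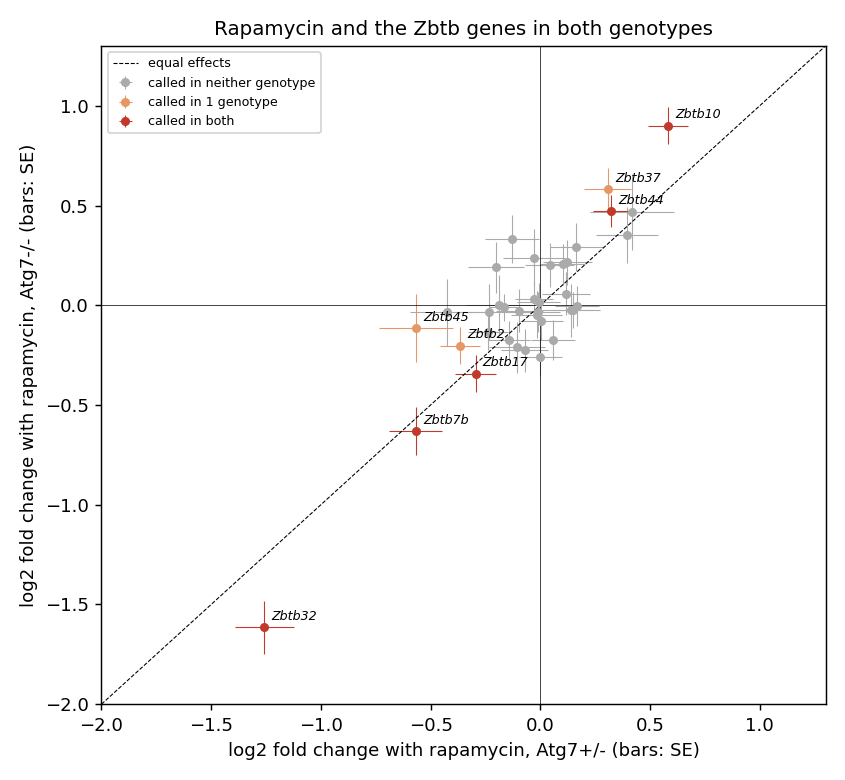
Log2 fold change with rapamycin in Atg7+/- cells (horizontal axis) and in Atg7-/- cells (vertical axis) for each of the 37 Zbtb genes, with standard errors as bars and a dashed line where both would be equal. Zbtb32 lies far from the other genes at -1.26 and -1.61, and Zbtb10 is the highest at 0.58 and 0.90.

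The promoters of 3 genes that moved with rapamycin in both genotypes are shown, since the first starts differ in composition: Zbtb32 and Zbtb7b fell and Zbtb44 rose. The 250 bases before a RefSeq start (GRCm38.p6) are written 5′ to 3′ with matches to the GC box in capitals, and for Zbtb32 and Zbtb7b the first of 2 listed starts is used.
Zbtb32, chr7:30598910-30599159, minus strand: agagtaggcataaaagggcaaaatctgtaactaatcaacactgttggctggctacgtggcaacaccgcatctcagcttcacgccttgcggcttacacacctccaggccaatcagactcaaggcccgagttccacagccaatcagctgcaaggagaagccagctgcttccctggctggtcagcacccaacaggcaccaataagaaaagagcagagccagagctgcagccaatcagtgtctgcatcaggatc
Zbtb7b, chr3:89393379-89393628, minus strand: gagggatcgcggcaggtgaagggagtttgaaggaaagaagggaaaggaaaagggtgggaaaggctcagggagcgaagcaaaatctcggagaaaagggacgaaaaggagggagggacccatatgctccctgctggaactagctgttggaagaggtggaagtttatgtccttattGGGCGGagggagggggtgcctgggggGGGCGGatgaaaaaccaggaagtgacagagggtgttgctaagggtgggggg
Zbtb44, chr9:31030394-31030643, plus strand: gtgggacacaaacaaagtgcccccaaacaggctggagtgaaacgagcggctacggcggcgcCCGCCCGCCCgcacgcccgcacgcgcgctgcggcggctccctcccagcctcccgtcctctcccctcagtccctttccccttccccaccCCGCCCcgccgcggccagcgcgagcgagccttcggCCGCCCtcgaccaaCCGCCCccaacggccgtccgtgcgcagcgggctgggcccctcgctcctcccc
The motif searches covered both strands with the GC box (GGGCGG), E-box (CACGTG), AP-1 site (TGANTCA), ETS site (CCGGAAG) and the site of Zbtb33 or Kaiso (TCCTGCNA). Zbtb44 held 5 GC boxes, 1 pair of them overlapping, and Zbtb7b held 2, while the Zbtb32 window held none of the motifs. The ratio of observed to expected CpG was 0.28 for Zbtb32, 0.53 for Zbtb7b and 1.00 for Zbtb44. At the second starts of Zbtb32 and Zbtb7b it was 0.12 and 0.19. The medians were 0.78 over the members' starts and 0.37 over all starts. Zbtb17, which is not shown, also fell in both genotypes, and its starts 1 and 2 had ratios of 0.93 and 0.97. A relation between promoter composition and the direction of change was not tested.

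Sequences were found for 32 of 37 members, with 45 starts; Zbtb7c, Zbtb10, Zbtb16, Zbtb40 and Zbtb48 had none. A GC box lay within 57.8% of the members' windows and 32.7% of all 32851 windows of this length, and an ETS site within 17.8% and 6.9%. The E-box was held by 8.9% and 6.0%, the AP-1 site by 2.2% and 6.7%, and the Kaiso site by 8.9% and 4.0%. Windows of 1 gene can overlap and were each counted. By gene, 22 of 32 members had a GC box, 8 an ETS site, 3 an E-box, 1 an AP-1 site and 2 a Kaiso site. The 4 Kaiso windows were those of starts 2, 3 and 4 of Zbtb18 and of Zbtb37. The GC content had a median of 62.4% in the members' windows and 52.4% in all. Low CpG ratios like that of Zbtb32 were also seen for Zbtb20 (0.24) and Zbtb46 (0.00). They were seen as well at starts 2 to 5 of Zbtb18 (0.00, 0.00, 0.23 and 0.18, against 1.09 at its start 1), a gene called in no comparison. Such matches describe letters only.

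Loss of Atg7 was first compared in untreated cells, where it asks how autophagy bears on stimulated Treg cells. Zbtb10 was 1.72-fold lower in Atg7-/- cells, Zbtb4 1.56-fold, Zbtb20 1.46-fold, Zbtb37 1.35-fold and Zbtb46 1.33-fold, and no member was called higher. The 5 called members are 13.5% of 37, against 3.14% of all genes called, 1.75% called higher and 1.39% called lower. The family was chosen with earlier results of these data known, so these shares are descriptions without a test. Without untreated Atg7+/- replicate 3, or without untreated Atg7-/- replicate 4, the count was 3. Over all 16760 genes the 527 calls then became 319 and 322. Arrays of the genotypes did not overlap for 8 members, 1 higher and 7 lower, where 14.1% of all genes did not overlap. The members' median was nonetheless -0.03, against 0.02 over all genes. This comparison and the one of rapamycin in Atg7-/- cells share the untreated Atg7-/- arrays, so the fall of Zbtb10 and Zbtb37 here and their rise there are not independent.

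Zbtb10 gave 9.04, 8.94, 8.74 and 8.87 in untreated Atg7+/- cells and 7.94, 8.22, 8.03 and 8.26 in untreated Atg7-/- cells, well apart (-0.78, SE 0.0918, limma adjusted p = 0.000345, n = 4 each). Zbtb4, a repressor that binds methylated CpG sites, gave 7.53, 7.72, 7.58 and 7.54 against 6.72, 7.15, 7.22 and 6.72 (-0.64, SE 0.123, adjusted p = 0.00744). Within the Atg7-/- group its arrays split into a lower and a higher pair, all below the Atg7+/- arrays. Zbtb20, a repressor known from liver, neurons and plasma cells, gave 7.01, 6.94, 6.91 and 7.20 against 6.45, 6.52, 6.54 and 6.38 (-0.54, SE 0.112, adjusted p = 0.0126). These groups were separate too.

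Zbtb37 gave 6.91, 6.78, 6.83 and 6.67 in untreated Atg7+/- and 6.15, 6.58, 6.45 and 6.26 in untreated Atg7-/- cells (-0.44, SE 0.106, limma adjusted p = 0.0324). Its call was lost without Atg7+/- replicate 1, 2 or 3 or Atg7-/- replicate 1 or 4 and with arrays centred on their medians, with adjusted p up to 0.107. Zbtb46, a marker of classical dendritic cells, gave 6.49, 6.38, 6.71 and 6.62 against 6.17, 6.25, 6.14 and 6.01 (-0.41, SE 0.0912, adjusted p = 0.0189), a call lost without Atg7+/- replicate 3 or 4 or Atg7-/- replicate 4 (adjusted p up to 0.0735). Of 5 further dendritic cell markers 4 had a probe set, Flt3, Itgax, Xcr1 and Siglech, and none of these was called between untreated genotypes. Their mean signal per array was 4.37 to 4.61 in untreated Atg7+/- and 4.70 to 4.84 in untreated Atg7-/- cells. With rapamycin, where Zbtb46 was lower without a call, the genotypes overlapped, at 4.30 to 4.74 in Atg7+/- and 4.14 to 4.83 in Atg7-/- cells. The mean of 5 macrophage markers was higher in untreated Atg7-/- than untreated Atg7+/- cells, at 5.22 to 5.36 against 5.09 to 5.21, with none of them called. Among them Lyz2 differed most (0.46), while Cd68 was slightly lower (-0.04). With rapamycin the macrophage mean was 4.67 to 5.45 in Atg7-/- and 5.21 to 5.57 in Atg7+/- cells. The part of such cells in the genotype differences was not tested.

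In the opposite direction, Zbtb32 was 0.48 higher in untreated Atg7-/- cells (SE 0.133, limma adjusted p = 0.0573), not called although all 4 Atg7-/- arrays, at 7.59 to 7.91, were above the Atg7+/- arrays, at 7.15 to 7.52. It was called in 7 of 25 alternatives. Zbtb44 (-0.22, adjusted p = 0.154) and Zbtb7a (-0.18, adjusted p = 0.166) were also separate between genotypes without being called.

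Under rapamycin, Zbtb10 and Zbtb20 were the 2 members called between genotypes, both lower in Atg7-/- cells, by 1.38-fold and 1.37-fold. They make up 5.41% of the members, against 3.24% of all genes called, 1.91% called higher and 1.33% called lower. Zbtb10 was 9.36, 9.55, 9.51 and 9.49 in Atg7+/- and 8.95, 9.11, 9.05 and 8.95 in Atg7-/- cells (-0.46, SE 0.0918, limma adjusted p = 0.0135). Zbtb20 was 7.32, 7.26, 7.06 and 6.92 against 6.71, 6.85, 6.39 and 6.81 (-0.45, SE 0.112, adjusted p = 0.0364). Both genes had separate groups. Fitted on these 2 groups alone, neither was called, and 1 was called with array weights, with arrays centred on their medians, or without any single one of Atg7+/- replicate 1 and Atg7-/- replicates 1, 3 and 4; without Atg7+/- replicate 2 the count was 0. In particular, without Atg7-/- replicate 3, which stood apart, Zbtb10 was the member called. Over all 16760 genes the 543 calls became 20 on these 2 groups alone, 355 with median centring and 500 with array weights. Without single arrays they were 95 to 790, with 95 without Atg7+/- replicate 2 and 287 without Atg7-/- replicate 3.

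Zbtb46 was 6.32, 6.32, 6.16 and 6.43 in rapamycin Atg7+/- and 6.02, 5.90, 5.99 and 6.12 in rapamycin Atg7-/- cells, without overlap and without a call (-0.30, SE 0.0912, limma adjusted p = 0.0772). Zbtb45 was 0.50 higher (adjusted p = 0.109), its 4 Atg7-/- arrays at 4.28 to 4.72 all above the Atg7+/- arrays. The same rapamycin Atg7+/- arrays gave its fall with rapamycin, so these results are not independent. The difference of Zbtb4, called without rapamycin, was -0.18 (95% interval -0.43 to 0.08), with arrays at 7.24, 7.58, 7.63 and 7.41 against 7.15, 7.28, 7.48 and 7.24. In all, 4 members had groups without overlap, 1 higher and 3 lower, where 9.77% of all genes did not overlap; without Atg7-/- replicate 3 the count was also 4, and 13.3% of all genes. The median over the members was 0.01 against 0.02 over all genes.

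**Figure D4:**
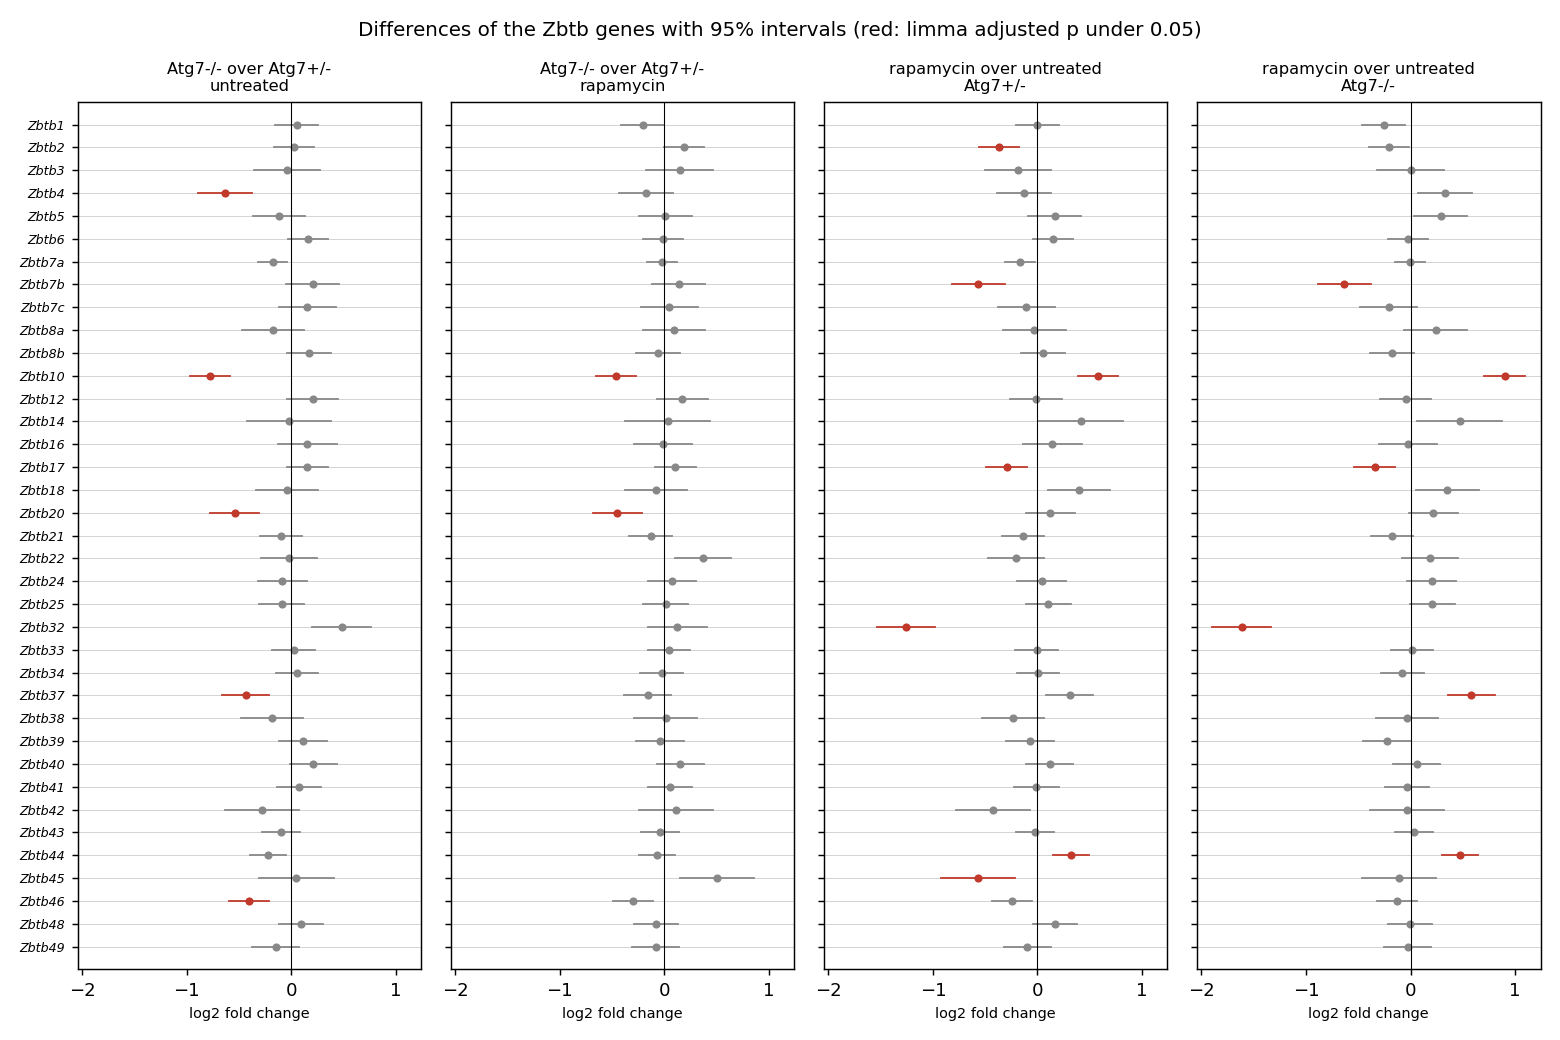
Log2 fold change (points) with its 95% interval from limma (lines) for each of the 37 Zbtb genes in the 4 comparisons, red where the adjusted p was under 0.05. Most intervals span 0, and Zbtb10 is red in all 4 panels.

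Whether rapamycin acted differently in the 2 genotypes was tested as the difference between its effects. Limma called 0 of 37 members and 0 of 16760 genes, with 3 members and 1052 genes at an unadjusted p under 0.05, so the background was 0%. Without Atg7-/- rapamycin replicate 3 both counts were again 0, with 2 members and 1034 genes at an unadjusted p under 0.05. The 3 members were Zbtb4 (0.46, SE 0.173), Zbtb22 (0.39, SE 0.18) and Zbtb10 (0.32, SE 0.13), all with the larger value in Atg7-/- cells, and the smallest adjusted p was 0.72. For Zbtb32 the difference was -0.36, at an adjusted p of 0.80. The calls that were made in only 1 genotype, those of Zbtb2, Zbtb45 and Zbtb37, are thus not shown to differ between genotypes.

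Other members known from lymphocytes were not called in any comparison. Zbtb1, needed for T cell development, read 8.54, 8.49, 8.77 and 8.77 in untreated Atg7+/-, 8.55, 8.74, 8.61 and 8.86 in untreated Atg7-/-, 8.77, 8.72, 8.51 and 8.57 in rapamycin Atg7+/-, and 8.44, 8.39, 8.34 and 8.57 in rapamycin Atg7-/- cells. Its lowest group was rapamycin Atg7-/-, at -0.26 from untreated Atg7-/- (95% interval -0.46 to -0.05, limma adjusted p = 0.0718). Zbtb25, its neighbour on chromosome 12 and a repressor of NFAT targets in human T cells, read 8.28, 8.22, 8.45 and 8.55, then 8.18, 8.42, 8.34 and 8.20, then 8.66, 8.56, 8.36 and 8.33, then 8.66, 8.37, 8.41 and 8.51 in the same order of groups. These groups overlapped, with differences between -0.09 and 0.21 over the 4 comparisons.

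Zbtb7a (LRF), which acts with Zbtb7b in helper T cells, read 5.59, 5.54, 5.62 and 5.60 in untreated Atg7+/- cells. The other groups were at 5.35 to 5.43, 5.38 to 5.45 and 5.33 to 5.46, so untreated Atg7+/- cells stood highest without a call. With rapamycin in Atg7+/- cells the difference was -0.16 (SE 0.0681, limma adjusted p = 0.118), and after a second quantile normalization it was -0.25 and called (adjusted p = 0.0464). Zbtb16 was dim and its groups overlapped, with 4.39, 4.26, 4.00 and 4.38 and then 4.31, 4.32, 4.31 and 4.70 untreated, and 4.72, 4.29, 4.14 and 4.45 and then 4.64, 4.27, 4.33 and 4.30 with rapamycin. Its differences were -0.03 to 0.15, with 95% intervals that reach from -0.31 to 0.43.

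Of the members that bind methylated CpG sites besides Zbtb4, Zbtb33 had group means of 7.49 to 7.54 and Zbtb38 of 5.78 to 6.01, and neither was called. Among members with roles in chromosome maintenance, Zbtb48, which binds telomeres, had group means of 5.97 to 6.14, and Zbtb24, mutated in a human immunodeficiency with centromere instability, of 5.89 to 6.09. Neither of these was called either. Zbtb18, a repressor known from brain development, was 0.40 and 0.35 higher with rapamycin in Atg7+/- and Atg7-/- cells (limma adjusted p = 0.0696 and 0.0862). Zbtb14 was 0.42 and 0.47 higher (adjusted p = 0.157 and 0.0919), with a spread of 0.457 (SD, n = 4) in rapamycin Atg7-/- cells, where replicate 3 read 7.61 against 6.58 to 7.05. Without that array the 0.47 became 0.26, and without untreated Atg7+/- replicate 4, which read 6.09 against 6.67 to 6.75, the 0.42 became 0.27. The 0.47 became 0.60 and was called without rapamycin Atg7-/- replicate 1 (limma adjusted p = 0.037) or without untreated Atg7-/- replicate 4 (adjusted p = 0.0468). In Atg7+/- cells all rapamycin arrays of Zbtb14 were above all untreated ones. Averaged over its 3 probe sets the differences were 0.25 and 0.25.

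The remaining members, Zbtb3, Zbtb5, Zbtb6, Zbtb7c, Zbtb8a, Zbtb8b, Zbtb12, Zbtb21, Zbtb22, Zbtb34, Zbtb39, Zbtb40, Zbtb41, Zbtb42, Zbtb43 and Zbtb49, were called in no comparison. Their log2 fold changes ran from -0.43, for Zbtb42 with rapamycin in Atg7+/- cells (limma adjusted p = 0.0987), to 0.37, for Zbtb22 between genotypes under rapamycin (adjusted p = 0.122). Zbtb5, known in human cells as a repressor of CDKN1A, was 0.29 higher with rapamycin in Atg7-/- cells (adjusted p = 0.0959). None of these 16 genes had groups without overlap in any of the 4 comparisons.

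Of 8 BTB zinc finger genes that go by other symbols, 1 fell with rapamycin in Atg7+/- cells and 3 fell in Atg7-/- cells, where 8.11% and 11.1% of all genes fell, and none rose. Gzf1 fell in both (-0.49 and -0.66, limma adjusted p = 0.00511 and 0.000368), and Mynn (-0.51) and Bcl6 (-0.51) fell in Atg7-/- cells. Bcl6, the repressor that directs follicular helper T cells, was lower in Atg7-/- than Atg7+/- cells under rapamycin (-0.57, adjusted p = 0.0485). The same rapamycin Atg7-/- arrays gave its fall with rapamycin, so these results are not independent. None of the 8 was called between untreated genotypes, where the smallest adjusted p was that of Gzf1, 0.0893, followed by Bcl6b at 0.17 (log2 fold changes 0.33 and -0.43). The list's medians with rapamycin were -0.24 and -0.19 against -0.03 and -0.04 over all genes. Without Atg7-/- rapamycin replicate 3, Bcl6 (-0.66), Mynn (-0.64) and Gzf1 (-0.68) were again called with rapamycin in Atg7-/- cells, and Bcl6 (-0.72) between genotypes under rapamycin.

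Corepressors and the ligase scaffold that BTB zinc finger proteins bind had 16 of 19 genes tested. With rapamycin in Atg7+/- cells 3 fell, the histone deacetylases Hdac1 (-0.33) and Hdac3 (-0.40) and the corepressor Ctbp1 (-0.39), and 1 rose, Hdac5 (0.74). In Atg7-/- cells Hdac1 fell (-0.44) and Hdac5 rose (0.80). These are 4 and 2 of 16 genes, against 14.1% and 20.0% of all genes called. Without Atg7-/- rapamycin replicate 3, 4 were called in Atg7-/- cells, Hdac3 (-0.33) and Mta2 (-0.28) being added, and 5 in Atg7+/- cells, with Mta2 (-0.27). Of all 16760 genes, 3414 were then called in Atg7-/- and 2785 in Atg7+/- cells. No gene of this list was called between genotypes, with or without rapamycin; the smallest adjusted p in untreated cells were 0.10 for Tbl1xr1 and 0.134 for Hdac2. The list's medians with rapamycin were -0.11 and -0.13, against -0.03 and -0.04 over all genes.

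In the circuit around Zbtb7b, 10 of 11 genes were tested. Rapamycin lowered Cd4 (-0.67 and -0.75 in Atg7+/- and Atg7-/- cells), Runx1 (-0.68 and -0.60) and Runx3, the factor of the CD8 fate (-0.52 and -0.66), while Myb rose (0.93 and 0.78). In Atg7-/- cells Gata3, which acts before Zbtb7b in the thymus, fell (-0.50) and Lef1 rose (0.54). Thus 1 rose and 3 fell in Atg7+/- cells and 2 rose and 4 fell in Atg7-/- cells, with medians of -0.14 and -0.13 against -0.03 and -0.04 over all genes. Of all genes 14.1% and 20.0% were called in these comparisons. Without Atg7-/- rapamycin replicate 3 all 6 calls in Atg7-/- cells were made again, with Lef1 at 0.46 (adjusted p = 0.0405), and Cd8b1 (-0.41) was called with rapamycin in Atg7+/- cells. Cd8b1 was higher in Atg7-/- than Atg7+/- cells under rapamycin (0.72, limma adjusted p = 0.0198), a call lost without that array (0.57, adjusted p = 0.0505), and no gene of the circuit was called between untreated genotypes, where Gata3 (0.29) and Cd8b1 (0.36) had the smallest p (adjusted p = 0.127 and 0.228).

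Of 10 genes linked to Myc, Max and Zbtb17, 1 was called between genotypes, Mxi1, a Max partner that opposes Myc, lower in Atg7-/- cells by -0.41 without and -0.51 with rapamycin (limma adjusted p = 0.0497 and 0.0194). Of all genes, 3.14% and 3.24% were called between genotypes without and with rapamycin. The shares called with rapamycin were 14.1% in Atg7+/- and 20.0% in Atg7-/- cells. None of the 10 was called with rapamycin in either genotype, where Zbtb17 itself fell. The smallest p were those of Max (-0.24) and Huwe1 (0.23) in Atg7+/- and of Cdkn1a (-0.57) and Myc (0.22) in Atg7-/- cells, with adjusted p of 0.0756, 0.0864, 0.07 and 0.0989. The list's medians were -0.19 and -0.15 between genotypes and 0.10 and 0.08 with rapamycin, against 0.02, 0.02, -0.03 and -0.04 over all genes. Mxi1 was again called in both genotype comparisons (-0.41 and -0.57) without Atg7-/- rapamycin replicate 3. Cdkn1a was then called lower with rapamycin in Atg7-/- cells (-0.81, adjusted p = 0.00531). It was called lower in Atg7-/- cells under rapamycin (-0.78, adjusted p = 0.0422), a comparison that shares the rapamycin Atg7-/- arrays. Huwe1 (0.23, adjusted p = 0.0422) was then called higher with rapamycin in Atg7+/- cells.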

How the data were processed

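Gene expression was measured on 16 arrays in 4 groups of 4, grouped by the sample titles. The authors deposited log2 signals for 41345 probe sets; the submitters' processing notes list RMA and Partek 6.6 and give no settings. Folds assume base 2, as in RMA. The sources used here give no genome build, annotation version or batch. Probe sets were named through GEO's platform annotation (23521 with 1 symbol, 1814 with several, 16010 unnamed here), and 9 that pair a Zbtb symbol with another gene were not used. All 37 members matched RefSeq by Entrez identifier under the same symbol. Limma 3.58.1 fitted 4 group means to each of 16760 genes (R 4.3.3, lmFit and eBayes, 12 residual and 5.64 prior degrees of freedom), with two-sided tests and Benjamini-Hochberg adjustment over all of them and calls at an adjusted p under 0.05. SE is that of the moderated fit, and SD is over 4 arrays. Comparisons that use the same group share its arrays and are not independent. All groups share a gene's estimate of spread, but arrays of rapamycin Atg7-/- cells deviated more from their group mean (root mean square 0.159 to 0.242) than those of untreated Atg7+/- cells (0.142 to 0.156). Arrays give no read depth, and their number limits the precision. The script was tested on simulated data.

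Members and lists were chosen with earlier results of these data known, and promoter motifs after the present ones. Array values are written out for called members and for Zbtb7b, Zbtb7a, Zbtb1, Zbtb16, Zbtb17, Zbtb20, Zbtb25 and Zbtb32; from other lists, up to 4 called genes, or where none was called the 2 of smallest p, could be named in a comparison. Runx3 and Lef1 in Atg7-/- cells, and uncalled members named singly, were chosen after their values were seen. Zinc fingers were not counted, since protein sequences were not used here. Alternatives were another normalization, dim filter, probe set rule, variance model, weighting, sample set and block, and each array left out; the list genes and correlations without Atg7-/- rapamycin replicate 3 were added after seeing the data.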

Additional observations from a re-analysis of the deposited data

Results flagged for a closer look

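Dixon's test was run on each of the 37 genes in each of the 4 groups of 4 arrays, 148 in all, and 8 had an array farther from the others than its 95% critical value allows; chance gives about 1 in 20. In untreated Atg7+/- cells these were Zbtb14 in replicate 4, at 6.09 against 6.67 to 6.75, and Zbtb49 in replicate 2, at 5.51 against 5.61 to 5.64. In untreated Atg7-/- cells they were Zbtb16 in replicate 4, at 4.70 against 4.31 to 4.32, Zbtb24 in replicate 2, at 6.18 against 5.78 to 5.83, and Zbtb39 in replicate 4, at 7.15 against 7.08 to 7.09. In rapamycin Atg7-/- cells they were Zbtb16 in replicate 1, at 4.64 against 4.27 to 4.33, Zbtb41 in replicate 4, at 7.37 against 7.20 to 7.23, and Zbtb49 in replicate 3, at 5.06 against 5.49 to 5.57. None of these genes was called in any comparison.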

How the results depend on the processing

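Of the 20 calls of a member in a comparison, 13 held under all 25 alternatives run and 7 were lost in at least 1; no called change turned its sign. The 7 were Zbtb10 and Zbtb20 between genotypes under rapamycin, Zbtb37 and Zbtb46 between untreated genotypes, and Zbtb17, Zbtb44 and Zbtb45 with rapamycin in Atg7+/- cells. Of 165 differences not called, 13 were called under some alternative. Under rapamycin the 2 members called between genotypes became 1 with arrays centred on their medians, 1 with array weights and 0 with only those groups fitted; the cause was not tested. Leaving out each array gave 3 to 6 called members between untreated genotypes, 0 to 3 between genotypes under rapamycin, 5 to 8 with rapamycin in Atg7+/- cells, 6 to 8 with it in Atg7-/- cells, and 0 for the difference of its effects. With the replicate number as a block the counts were 5, 2, 7, 7 and 0, and over all 16760 genes 529, 592, 2492, 3491 and 0. With rapamycin in Atg7+/- cells Zbtb17 then lost its call (limma adjusted p = 0.0538) and Zbtb18 was called (adjusted p = 0.0465). In Atg7-/- cells Zbtb4 was added (0.33, adjusted p = 0.0186). The labels give no reason to pair numbers, and same-numbered arrays correlated over 0.1 in 6 of 24 pairs and best with their own number in 8. Between the rapamycin groups 3 of 4 pairs were over 0.1 (0.24, 0.19 and 0.36), each best with its own number, and replicate 4 was at -0.07; the block left 2 members called there. Over all genes, the 543 called between genotypes under rapamycin (320 higher, 223 lower) became 355 with median centring (257 and 98), 886 with trend and robust options, 20 with only those groups, and 95 to 790 without single arrays (without Atg7-/- replicate 3, 115 higher and 172 lower). The 527 between untreated genotypes became 318 with median centring, 974 with array weights and 282 to 695 without single arrays. For rapamycin in Atg7+/- cells, 2370 (1011 and 1359) became 2116 with median centring (668 and 1448), 3428 with array weights and 1554 to 2785 without single arrays. For rapamycin in Atg7-/- cells, 3347 (1480 and 1867) became 2729 with median centring (1357 and 1372), 2247 with only those groups and 2513 to 3414 without single arrays.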
